A study of Homo sapiens with 6 samples.

Results

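The genes described are 10 members of an endocytic route that works without clathrin, chosen by name: 6 regulators of the route (ARHGAP26, ARHGAP10, CDC42, ARF1, GBF1 and BAIAP2) and 4 surface proteins of the kind it carries inwards (CD55, CD59, CD109 and NT5E). All 10 were among the 25680 gene symbols of the deposited files. They were read in U87 cells, an established human glioblastoma line labelled wild type, which had all received 500 nM of EPP6, a cyclic peptide tagged with the red dye rhodamine, for 1 h at 37C. After detachment, a cell sorter collected the 30% of cells with the most dye (high uptake) and the 30% with the least (low uptake). Each group has 3 RNA libraries, numbered 2, 3 and 4. The question put is which membrane proteins and routes bring cyclic peptides into cells. Every library came from peptide-treated cells, so there is no untreated level to set beside these values.

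The route is called CLIC/GEEC, for clathrin-independent carriers that mature into compartments enriched in GPI-anchored proteins. Its carriers are short tubes that bud from the plasma membrane and take in fluid together with proteins held in the outer leaflet by a glycolipid (GPI) anchor. At the membrane GBF1 loads the small GTPase ARF1 with GTP, CDC42 drives actin assembly through the ARP2/3 complex, and proteins with curved lipid-binding domains shape the bud. ARHGAP26 (GRAF1) and its paralogue ARHGAP10 (GRAF2) carry such a domain next to one that switches CDC42 off, while BAIAP2 (IRSp53) has an inverse domain that bends the membrane outwards and binds active CDC42. Among the cargo, CD55 and CD59 protect cells from complement, CD109 is a co-receptor that restrains TGF-beta signalling, and NT5E (CD73) turns extracellular AMP into adenosine.

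None of the 10 genes passed the unpaired test of high against low uptake, as regulators or as cargo. The test was edgeR's quasi-likelihood test over all 14598 genes with enough counts, with an adjusted p threshold of 0.05, and it called 626 of them, which is 4.29% (442 or 3.03% higher and 184 or 1.26% lower in high uptake). All 10 members had enough counts to be tested. At an unadjusted p under 0.05 there were 5 members, 3 higher (CD109, CD59 and GBF1) and 2 lower (CD55 and ARF1), against 18.4% of all tested genes (10.4% higher and 7.97% lower). DESeq2 called 1 of the 10, CD55, where it called 6.08% of all genes, and limma called none, against 4.40% of all genes. With the dependence on GC content taken out of each library, 1365 genes were higher and 979 lower, 16.1% in all, and 5 members passed (CD109, GBF1, BAIAP2, CD55 and ARF1). A fit with the replicate number as a block called 6 members (ARF1, GBF1, BAIAP2, CD55, CD59 and CD109), where it called 21.8% of all genes. The absence of calls thus holds for the unpaired test only. What the replicate numbers stand for is not known, so the unpaired test was kept as the main one. High and low uptake libraries did not overlap for 3 members on the higher side (CD59, GBF1 and BAIAP2) and 3 on the lower side (CD55, ARF1 and ARHGAP10), where 24.4% of all tested genes did not overlap (13.0% higher and 11.4% lower). The median log2 fold change of the 10 was 0.06, against -0.00 over all tested genes.

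The cargo pair with the widest opposite differences, CD55 and CD109, has 1 start each in the RefSeq table, and the DNA around these starts is shown because it is where the genes' transcription begins. Each window runs from 250 bases before to 50 after the start, 5′ to 3′ on the plus strand of build GRCh38.p14, as given by RefSeq. The CD55 window is chr1:207321428-207321727 and the CD109 window chr6:73695953-73696252. Capitals mark the GC box, GGGCGG on either strand, the classical site of SP1.
CD55: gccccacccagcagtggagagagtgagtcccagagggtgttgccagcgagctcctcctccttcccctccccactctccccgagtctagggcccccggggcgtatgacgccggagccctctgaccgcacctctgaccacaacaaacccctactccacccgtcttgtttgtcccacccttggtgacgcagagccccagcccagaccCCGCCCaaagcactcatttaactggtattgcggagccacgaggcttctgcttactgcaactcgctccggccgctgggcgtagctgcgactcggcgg
CD109: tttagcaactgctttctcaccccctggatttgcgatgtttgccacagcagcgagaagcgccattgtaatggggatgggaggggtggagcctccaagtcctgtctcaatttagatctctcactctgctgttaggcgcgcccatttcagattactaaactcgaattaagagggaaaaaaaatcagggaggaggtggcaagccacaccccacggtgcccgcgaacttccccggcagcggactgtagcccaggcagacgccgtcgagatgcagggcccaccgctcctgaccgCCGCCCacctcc
Both windows hold 1 GC box, which 45.0% of all 35116 windows of this length in the table hold. On both strands, 4 further motifs were searched and found in neither window. The CCAAT box, searched by the letters in its name, is in 34.6% of all windows. The TATA box, searched as TATAAA, is in 11.5% of them. The core of the hypoxia response element, ACGTG, is in 21.4% of all windows. The AP-1 site, TGACTCA, is in 4.95% of all windows. The windows differ in base composition, with 65.0% G and C for CD55 and 57.7% for CD109. The 10 members have 20 windows in all, some of which overlap, and each member has at least 1 with a GC box. These matches describe letters only.

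Total counts per library were 40742857, 13712263 and 33384135 in high replicates 2, 3 and 4, and 38048334, 21956344 and 20295900 in low replicates 2, 3 and 4. Nothing in the labels says that replicates were separate cultures, so p-values measure the spread between these libraries, which may be technical. Low replicates 3 and 4 were far closer to each other (chi-square 2.44 per degree of freedom over genes) than any other pair of a group (12.2 to 20.9). Both libraries numbered 2 stood apart on the second principal component, at 18.6 for high uptake and 23.8 for low uptake, while all others lay from -23.1 to -4.99. In both groups replicate 2 gave the highest value of CDC42, CD59 and CD109 and the lowest of ARF1, GBF1 and BAIAP2. VIM and CD44, abundant in the U87 line, were high here, with summed levels of the line's 6 markers at 13896 to 15082 CPM (counts scaled to library size, adjusted by TMM) in high uptake and 13114 to 13739 in low uptake. These sums did not overlap between the groups. Of the 6, none passed in edgeR or limma and 1 did in DESeq2. At an unadjusted p under 0.05 in edgeR 3 were higher and 0 lower, against 10.4% and 7.97% of all tested genes. Their log2 fold changes ran from -0.18 to 0.99. GFAP, the astrocyte filament, had 0.347 to 0.900 CPM in high uptake libraries against 0.311 to 0.955 CPM in low uptake libraries. Immune markers summed to 258 to 284 CPM in the high uptake group, against 234 to 283 CPM in the low uptake group, nearly all of it CD68, a lysosomal protein that is not limited to immune cells. Only CD68 of the 7 had enough counts to be tested (log2 0.07, adjusted p = 0.735 in edgeR), and AIF1 and MS4A1 were at 0. Endothelial markers summed to 8.89 to 9.66 CPM for high uptake and 9.5 to 9.93 CPM for low uptake, and none of the 4 tested passed as tested: KDR stood at -0.49 (adjusted p = 0.0819) and TEK at 0.54 (adjusted p = 0.131, and 0.0316 without both libraries numbered 2). Epithelial markers summed to 1.26 to 1.41 CPM for high uptake and 1.29 to 1.68 CPM for low uptake. Neuronal markers summed to 68.7 to 74.4 CPM in high uptake libraries against 66.6 to 68.9 CPM in low uptake libraries: STMN2 was at 0, SNAP25 rose by 0.80 (adjusted p = 0.00987 in edgeR) and MAP2 fell by 0.40 (adjusted p = 0.0415) on the log2 scale, and the part of these markers in the members' values was not tested. In sorted bulk cells, fewer cells expressing a gene and less of its RNA per cell cannot be told apart.

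Levels were compared between genes on the deposited TPM values, which are corrected for gene length. ARF1 was the most abundant member, at 506 ± 39.8 TPM (SD over all 6 libraries), above 98.3% of tested genes. NT5E came next at 427 ± 29 TPM. ARF1 exceeded NT5E in 6 of 6 libraries, but the ranges of the pair (454 to 558 and 394 to 468 TPM) overlapped. Among the 4 cargo genes NT5E had the highest level in 6 of 6 libraries. CD59 stood at 188 ± 20.4 TPM and CDC42 at 145 ± 16.3 TPM, without overlap with each other or with NT5E. CD109 (54.3 ± 11 TPM), GBF1 (53.9 ± 4.29 TPM) and BAIAP2 (51.0 ± 4.89 TPM) had overlapping ranges. CD109 exceeded GBF1 in 3 of 6 libraries, and GBF1 exceeded BAIAP2 in 6 of 6. The lowest levels were those of the GTPase-activating proteins and the complement regulator CD55. ARHGAP10 had 33.9 ± 1.79 TPM, CD55 24.2 ± 4.30 TPM and ARHGAP26 5.12 ± 0.281 TPM, with no overlap between neighbours in this order. ARHGAP26, the founding GRAF protein of the route, was below ARHGAP10 in every library, by a factor of 6.05 to 7.0 in high uptake and 6.24 to 7.27 in low uptake.

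**Figure D1:**
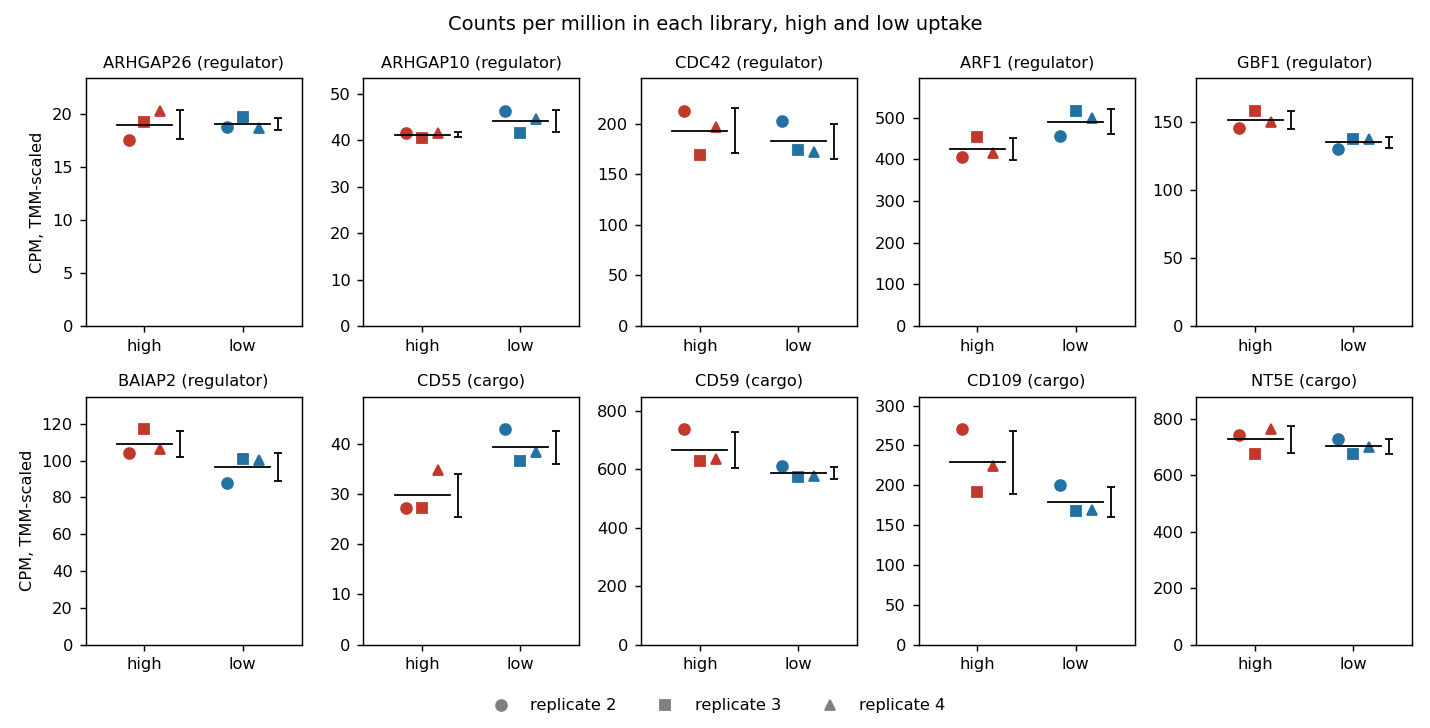
CPM scaled by TMM (vertical axes, starting at 0) of each member in the 3 high uptake libraries (red, left) and the 3 low uptake libraries (blue, right); the marker shape gives the replicate number, the line the mean and the bar beside it 1 SD. CD55 and ARF1 lie lower in all 3 high uptake libraries and CD59, GBF1 and BAIAP2 higher, while the groups overlap for CDC42, ARHGAP26, CD109 and NT5E.

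The switch that starts the route showed its enzyme and its GTPase on opposite sides. GBF1, the exchange factor, stood at 145, 158 and 149.6 CPM in high replicates 2, 3 and 4, against 130.2, 137 and 137 CPM in low replicates 2, 3 and 4. Every high uptake library was above every low uptake library, by a small margin. The log2 fold change of GBF1 was 0.16 (95% interval 0.00 to 0.33), with an adjusted p = 0.272 in edgeR. ARF1 stood at 406, 455 and 415 CPM in high uptake libraries, against 457, 517 and 499 CPM in low uptake libraries. Its highest high uptake value (replicate 3) was just under its lowest low uptake value (replicate 2), so the groups did not overlap. The log2 fold change of ARF1 was -0.21 (interval -0.38 to -0.04), with an adjusted p = 0.180 in edgeR. Neither passed as tested, and both passed with the GC trend removed, at adjusted p = 0.0304 for GBF1 and 0.00716 for ARF1. Both also passed with the replicate number as a block, at adjusted p = 0.0284 for GBF1 and 0.00396 for ARF1.

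Within each library the ratio of GBF1 to ARF1 separated the groups more clearly than either gene did. It was 0.122, 0.118 and 0.123 in high replicates 2, 3 and 4, against 0.0973, 0.0906 and 0.0934 in low replicates 2, 3 and 4, on TPM. The mean ratio was 1.29 times that of low uptake, with an SD of 0.00246 in high uptake and 0.00337 in low uptake. ARF3, a GTPase of the same class whose protein is nearly identical to ARF1, lay on the other side: 233, 237 and 228 CPM in high uptake libraries, against 194, 220.0 and 207 CPM in low uptake libraries (log2 0.17, adjusted p = 0.255 in edgeR). The ratio of ARF1 to ARF3 on TPM was therefore 2.80, 3.09 and 2.93 in high uptake, against 3.80, 3.78 and 3.88 in low uptake. These ratios and ARF3 were chosen after the values were seen, and are given with no test. The genes of each pair differ in opposite directions, so the clearer separation of the ratios follows from the choice. No stretch of at least 90% identity covers 10% of the ARF1 transcript in ARF3.

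**Figure D2:**
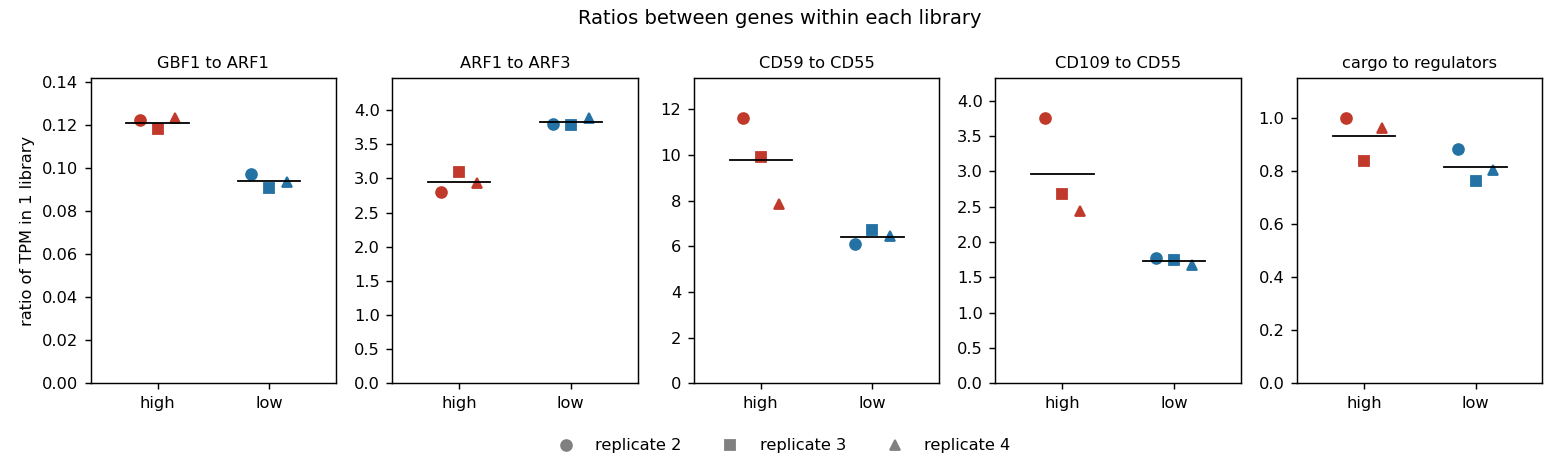
Ratio of TPM values within each library (vertical axes, starting at 0) for 4 gene pairs and for the summed cargo over the summed regulators, in high uptake (red, left) and low uptake (blue, right); lines are means and marker shapes give replicate numbers. The GBF1 to ARF1, CD59 to CD55 and CD109 to CD55 ratios are higher in all 3 high uptake libraries than in any low uptake library and ARF1 to ARF3 is lower, while the summed ratio overlaps between the groups.

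Of the ARF family and its regulators, 1 of 17 tested genes passed in edgeR, where 4.29% of all tested genes did. This was IQSEC1, an exchange factor that acts mainly on ARF6, which rose by 0.40 on the log2 scale. It had 51.9, 60.9 and 55.2 CPM in high uptake libraries, against 38.2, 44.6 and 44.2 CPM in low uptake libraries, with an adjusted p = 0.0435 in edgeR. Leaving out any 1 of the 6 libraries ended this call, at adjusted p 0.0523 to 0.121, and so did upper quartile scaling (0.0577), a filter of at least 50 counts (0.0554) and removal of the length trend (0.110). These 17 genes had a median log2 fold change of 0.09, and limma called 1 of them and DESeq2 2, against 4.40% and 6.08% of all genes. The other large exchange factors of ARF1 at the Golgi, ARFGEF1 and ARFGEF2, showed log2 differences of -0.03 and 0.08.

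CDC42, the GTPase that drives actin at the forming carrier, did not differ beyond the spread of its libraries. It stood at 213, 169 and 197 CPM in high uptake libraries, against 203, 174 and 172 CPM in low uptake libraries, and the groups overlapped. The log2 fold change was 0.08 (interval -0.14 to 0.29, adjusted p = 0.751 in edgeR), which is a fold difference with an interval of 0.906 to 1.23. A processed copy, CDC42P3, is alike over 27.4% of the CDC42 transcript and had 0 counts in every library. An unnamed gene on the same strand is alike over 89.4% of that transcript. In GENCODE v29 it overlaps 2055 of the 3598 exon bases of CDC42. That gene is not among the symbols of the deposited files, and neither it nor further copies were analysed here.

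The GRAF proteins end CDC42 activity at the carrier, and neither of the pair passed the test. ARHGAP26 had 17.5, 19.2 and 20.3 CPM in high uptake libraries, against 18.8, 19.7 and 18.7 CPM in low uptake libraries, from 259 to 728 counts per library, the lowest of the 10. Its log2 fold change was -0.01 (interval -0.22 to 0.21, adjusted p = 0.985 in edgeR), a size that 2.95% of tested genes fell under. ARHGAP10 had 41.5, 40.5 and 41.5 CPM in high uptake libraries, against 46.3, 41.6 and 44.6 CPM in low uptake libraries. Its groups did not overlap, but the nearest libraries were at 41.5 and 41.6 CPM, and the log2 fold change of -0.10 (interval -0.29 to 0.08) had an adjusted p = 0.577. The ratio of ARHGAP10 to ARHGAP26 on TPM averaged 6.43 ± 0.502 in high uptake and 6.86 ± 0.545 in low uptake (SD, n = 3 each), and overlapped.

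The protein first described as the ARF1-bound brake on CDC42 under the name ARHGAP10 is the one now called ARHGAP21, which is a different gene from the ARHGAP10 of the files. ARHGAP21 had 218, 232 and 238 CPM in high uptake libraries, against 225, 222 and 225 CPM in low uptake libraries. Its log2 fold change of 0.03 (interval -0.12 to 0.19, adjusted p = 0.868 in edgeR) lay near 0, and turned to -0.02 with the length trend removed. In the wider GRAF and membrane-bending family none of 8 tested genes passed in edgeR, nor at an unadjusted p under 0.05, and DESeq2 and limma called 0. ARHGAP42 (GRAF3) differed by 0.20 on the log2 scale (adjusted p = 0.382).

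BAIAP2, which links active CDC42 to the membrane and to actin, had 104, 117 and 106 CPM in high uptake libraries, against 87.6, 101 and 100.4 CPM in low uptake libraries. Each high uptake library was above each low uptake library, the nearest pair being high replicate 2 and low replicate 3. The log2 fold change was 0.18 (interval -0.02 to 0.37), with an adjusted p = 0.318 in edgeR. It passed with the GC trend removed (adjusted p = 0.0441) and with the replicate number as a block (0.0227). Exons of BAIAP2 overlap those of AATK on the opposite strand by 138 bases in GENCODE v29, but AATK held at most 21 counts in a library, against 1576 or more for BAIAP2.

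Genes around CDC42 also gave few calls. Of 20 tested effectors none passed in edgeR, DESeq2 or limma, with 1 at an unadjusted p under 0.05, PARD6A, a polarity protein (3.04 ± 0.218 CPM in high uptake libraries against 4.37 ± 0.665 CPM in low uptake libraries, log2 -0.50, adjusted p = 0.114). Without both libraries numbered 2 PARD6A passed in edgeR (log2 -0.64, adjusted p = 0.0373). Of 20 tested exchange factors, GTPase-activating proteins and inhibitors none passed in edgeR or limma and 1 did in DESeq2. At an unadjusted p under 0.05 there were 5, 4 higher and 1 lower, against 10.4% and 7.97% of all tested genes. Of these 20, 17 had a positive log2 fold change. The groups did not overlap for 7 on the higher side and 1 on the lower, against 13.0% and 11.4% of all tested genes. ARHGAP31, a GTPase-activating protein for CDC42 and Rac, had the smallest p, at 83.3 ± 0.872 CPM in high uptake libraries against 67.4 ± 4.93 CPM in low uptake libraries (log2 0.31, adjusted p = 0.0653 in edgeR and 0.0271 in DESeq2). Medians of the pair of lists were 0.02 and 0.14 on the log2 scale. The ARP2/3 complex, which builds the branched actin, and its inhibitor PICK1 gave 0 of 10 calls in edgeR, DESeq2 and limma, and 0 at an unadjusted p under 0.05. PICK1 differed by -0.10 on the log2 scale, and ARPC5L, with the smallest p there, -0.14 (adjusted p = 0.405 in edgeR and 0.482 in DESeq2).

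A further list held genes taken as restraining the route: CAV1, CAV2, PTRF, VCL, TLN1 and TLN2. Of these, 1 of 6 passed in edgeR, where 4.29% of all tested genes did. CAV1, the coat protein of caveolae, rose by 0.35 on the log2 scale (adjusted p = 0.0319), with 836, 713 and 832 CPM in high uptake libraries, against 638, 607 and 626 CPM in low uptake libraries. The CAV1 call was lost without replicate 2 or 4 of high uptake or replicate 3 or 4 of low uptake (adjusted p from 0.0926 to 0.134). VCL, which encodes the adhesion protein vinculin, stood at 551, 565 and 586 CPM in high uptake libraries, against 522, 536 and 538 CPM in low uptake libraries (log2 0.09, adjusted p = 0.508). The median log2 fold change of the 6 was 0.08, and all 6 were positive, from 0.00 to 0.35. The groups did not overlap for 3 of them, all on the higher side, against 13.0% of all tested genes.

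The 4 cargo genes did not move as a block: CD109 and CD59 stood higher in high uptake, CD55 lower and NT5E level, none of them past the threshold as tested. CD55, which speeds the decay of complement convertases, had 27.3, 27.2 and 34.7 CPM in high replicates 2, 3 and 4, against 42.9, 36.6 and 38.4 CPM in low replicates 2, 3 and 4. The groups did not overlap, and high replicate 4 lay nearest to the low uptake values. CD55 had the largest difference of the 10 members, a log2 fold change of -0.40 (interval -0.65 to -0.15), larger in size than that of 87.8% of tested genes. Its adjusted p of 0.0773 in edgeR missed the threshold, and was 0.0209 in DESeq2 and 0.0724 in limma. With all 6 libraries CD55 also passed with no filter on counts (adjusted p = 0.0246, 4.31% of all genes called) and with the GC trend removed (0.00650). With the replicate number as a block CD55 passed too (adjusted p = 4.32e-04, 21.8% of all genes called), as it did with that block and the GC trend removed (8.29e-04). It passed without high replicate 4 (log2 -0.52, adjusted p = 0.0452, 2.63% of all genes called), and stood at -0.26 (adjusted p = 0.182) when neither library numbered 2 was used.

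CD59, which blocks the last step of the membrane attack complex, had 736, 627 and 633 CPM in high uptake libraries, against 611, 572 and 576 CPM in low uptake libraries. All high uptake values were above all low uptake values, with high replicate 2 the highest. The log2 fold change was 0.18 (interval 0.01 to 0.36), with an adjusted p = 0.257 in edgeR. CD59 was thus on the other side from CD55, the other complement regulator of the 4. Without high replicate 2 the log2 fold change of CD59 was 0.10 (adjusted p = 0.599). CD59 passed only with the replicate number as a block (adjusted p = 0.0131), and with that block and the GC trend removed (0.00644). Those fits called 21.8% and 27.3% of all genes. The ratio of CD59 to CD55 on TPM was 11.6, 9.89 and 7.83 in high uptake, against 6.12, 6.70 and 6.44 in low uptake. The pair was chosen after the values were seen, and the ratio is given with no test. CD46, a complement regulator with a transmembrane segment in place of a GPI anchor, had 113 ± 11.9 CPM in high uptake libraries against 115 ± 9.09 CPM in low uptake libraries (n = 3 each, log2 -0.02, adjusted p = 0.945).

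Of 19 complement genes 9 had enough counts to be tested, and none passed in edgeR or limma and 1 did in DESeq2. In edgeR 2 had an unadjusted p under 0.05, where 18.4% of all tested genes did. C1QBP, a mitochondrial protein also found to bind C1q, had the smallest p of these, at 193 ± 9.21 CPM in high uptake libraries against 231 ± 3.05 CPM in low uptake libraries (log2 -0.26, adjusted p = 0.0716, and 0.0290 in DESeq2). Over the 9 the median was 0.11.

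CD109 had 270.3, 192 and 224 CPM in high uptake libraries, against 200.5, 168 and 169 CPM in low uptake libraries. The groups overlapped, since low replicate 2 was above high replicate 3, and CD109 had the widest spread of the 10 in high uptake (a coefficient of variation of 17.1%). The log2 fold change was 0.35 (interval 0.09 to 0.61), with an adjusted p = 0.131 in edgeR. CD109 passed without high replicate 3 (log2 0.45, adjusted p = 0.0167), with both libraries numbered 2 left out (log2 0.31, adjusted p = 0.0401) and with the GC trend removed (log2 0.36, adjusted p = 0.00208). It also passed with the replicate number as a block (adjusted p = 2.18e-05), and with that block and the GC trend removed (2.61e-05). Those block fits called 21.8% and 27.3% of all genes. Of all genes 4.92% were called without high replicate 3, 5.51% without both libraries numbered 2. Without high replicate 2 the log2 fold change of CD109 was 0.21 (adjusted p = 0.351). The ratio of CD109 to CD55 on TPM was 3.75, 2.68 and 2.44 in high uptake, against 1.77, 1.74 and 1.67 in low uptake. This pair was picked for its opposite differences, so the separation of the ratio follows from the choice. The ratio of NT5E to CD55, which mostly follows CD55 since NT5E was near level, was 23.2, 21.1 and 18.8 in high uptake, against 14.5, 15.7 and 15.6 in low uptake. GENCODE v29 places 300 bases of an unnamed gene on the opposite strand within CD109 exons, and 629 bases of another on the same strand within CD59 exons; neither was analysed here.

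NT5E, the most abundant cargo RNA, had 743, 674 and 763 CPM in high uptake libraries, against 729, 676 and 701 CPM in low uptake libraries. The groups overlapped. Its log2 fold change of 0.05 (interval -0.11 to 0.21, adjusted p = 0.787 in edgeR) puts the fold difference between 0.925 and 1.16. Around NT5E, 1 of 17 tested genes of extracellular ATP and adenosine passed in edgeR, where 4.29% of all tested genes did. This was ENPP1, which cleaves ATP to AMP and so makes the substrate of NT5E. It rose by 0.52 (42.1, 35.6 and 36.9 CPM in high uptake libraries, against 29, 25.5 and 25.6 CPM in low uptake libraries, adjusted p = 0.0156). The ENPP1 call was lost without replicate 2 of high uptake or replicate 3 or 4 of low uptake (adjusted p from 0.0536 to 0.0877). ADORA2B, a receptor for the adenosine that NT5E makes, did not pass in edgeR (53.4 ± 5.06 CPM in high uptake libraries against 65.6 ± 1.73 CPM in low uptake libraries, log2 -0.30, adjusted p = 0.0967) and had an adjusted p of 0.0466 in DESeq2. Over these 17 the median was -0.03.

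**Figure D3:**
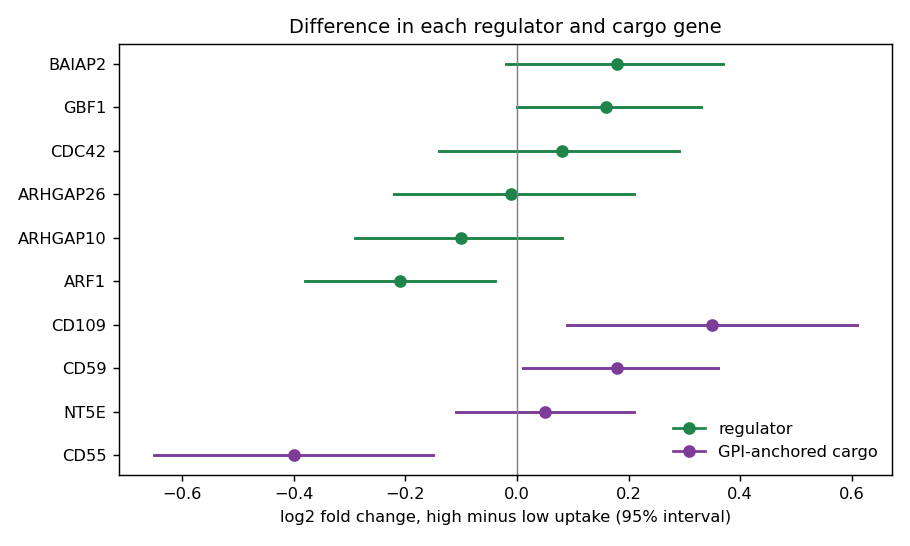
Log2 fold change of high over low uptake (horizontal axis) of each member, as edgeR's estimate (point) with its 95% interval (line), for regulators (green, upper rows) and GPI-anchored cargo (purple, lower rows). Estimates run from -0.21 to 0.18 for the regulators and from -0.40 to 0.35 for the cargo, and 5 of the 10 intervals stay on 1 side of 0 before adjustment.

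Set against each other, machinery and cargo gave sums and ratios that overlapped between high and low uptake. The regulators had a median log2 fold change of 0.03 and the cargo 0.12. Summed CPM of the 6 regulators was 939 ± 17.9 in high uptake and 969 ± 23.8 in low uptake, and summed CPM of the 4 cargo genes was 1650 ± 128 in high uptake and 1507 ± 67.9 in low uptake (SD, n = 3 each). Both sums overlapped between the groups. ARF1 made up 43.8% to 52.1% of the regulators' sum, and NT5E 41.8% to 47.2% of the cargo's, so the sums follow few genes. The ratio of cargo to regulators was 1.76 ± 0.167 in high uptake and 1.56 ± 0.109 in low uptake on CPM, and overlapped. In replicates 2, 3 and 4 this ratio was 1.92, 1.58 and 1.78 in high uptake, against 1.68, 1.47 and 1.53 in low uptake. At each replicate number the ratio and the cargo sum were higher and the regulators' sum lower in high uptake. Whether the numbers mark pairs is not known, and this difference was not tested. Without NT5E and ARF1 it was 1.80 ± 0.163 in high uptake and 1.69 ± 0.0632 in low uptake. With all 10 genes on TPM it was 0.933 ± 0.0842 in high uptake and 0.817 ± 0.0601 in low uptake, and overlapped.

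Of 53 other genes of GPI-anchored proteins 34 had enough counts to be tested, of which 3 rose and none fell, where 3.03% of all tested genes were called higher and 1.26% lower. MDGA1, a neural adhesion regulator, had 42.8, 51.4 and 42.9 CPM in high uptake libraries, against 18.6, 27.5 and 27.1 CPM in low uptake libraries (log2 0.91, SE 0.144, adjusted p = 0.00592). All high uptake libraries were above all low uptake libraries, and its call held without any single library. NRN1, the neuronal growth factor neuritin, rose by 0.44 (adjusted p = 0.0372) and LYPD6, which modulates Wnt receptors and nicotinic receptors, by 0.49 (adjusted p = 0.0415). The call of NRN1 was lost without high replicate 2 or any low uptake library (adjusted p from 0.0677 to 0.125) and without both libraries numbered 2 (0.0915), and that of LYPD6 without any library but low replicate 2 (0.0654 to 0.187) and with the length trend removed (0.0550). CD24, a small mucin-like adhesion protein, lay on the lower side, at 5.77, 4.38 and 4.68 CPM in the high uptake group, against 6.65, 6.27 and 7.38 CPM in the low uptake group (log2 -0.43, adjusted p = 0.127 in edgeR). It passed as lower without both libraries numbered 2 (log2 -0.58, adjusted p = 0.0254), as SEMA7A, a semaphorin, did as higher (log2 0.30, adjusted p = 0.0491), both named after their values were seen. The well-known anchored proteins PLAUR, the urokinase receptor, and PRNP, the prion protein, had log2 fold changes of 0.07 (adjusted p = 0.708) and 0.05 (adjusted p = 0.773). THY1, a classical marker of the route, was scarce, at 2.31 ± 1.24 CPM in high uptake libraries against 2.0 ± 0.451 CPM in low uptake libraries. The list's median log2 fold change was 0.08.

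Genes of GPI anchor synthesis, transfer and remodelling gave 0 of 34 calls in edgeR, DESeq2 and limma. At an unadjusted p under 0.05 there were 5, 3 higher and 2 lower, against 10.4% and 7.97% of all tested genes. PGAP2, which remodels the anchor's lipid in the Golgi, had the smallest p (15.2 ± 1.01 CPM in high uptake libraries against 18.3 ± 0.890 CPM in low uptake libraries, log2 -0.28, adjusted p = 0.156 in edgeR and 0.184 in DESeq2). Over these 34 the median log2 fold change was 0.01.

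Cargo of the route that spans the membrane, listed with its clustering lectin LGALS3, gave 2 calls among 6 tested genes, in opposite directions. Of all tested genes 4.29% were called. SLC3A2, the CD98 heavy chain, fell by 0.53 (adjusted p = 0.00372), and ITGB1, the integrin beta-1 chain, rose by 0.36 (adjusted p = 0.0464). The SLC3A2 call held under every other setting, with an adjusted p of at most 0.0186 (without high replicate 4). The ITGB1 call was lost without replicate 2 or 4 of high uptake or replicate 3 or 4 of low uptake (adjusted p from 0.119 to 0.175), with upper quartile scaling (0.0521) and with the length trend removed (0.0611). CD44, the hyaluronan receptor, had 1894, 1934 and 2033 CPM in high uptake libraries, against 1750, 1777 and 1734 CPM in low uptake libraries. Its groups did not overlap, but the log2 fold change of 0.16 had an adjusted p of 0.230 in edgeR.

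**Figure D4:**
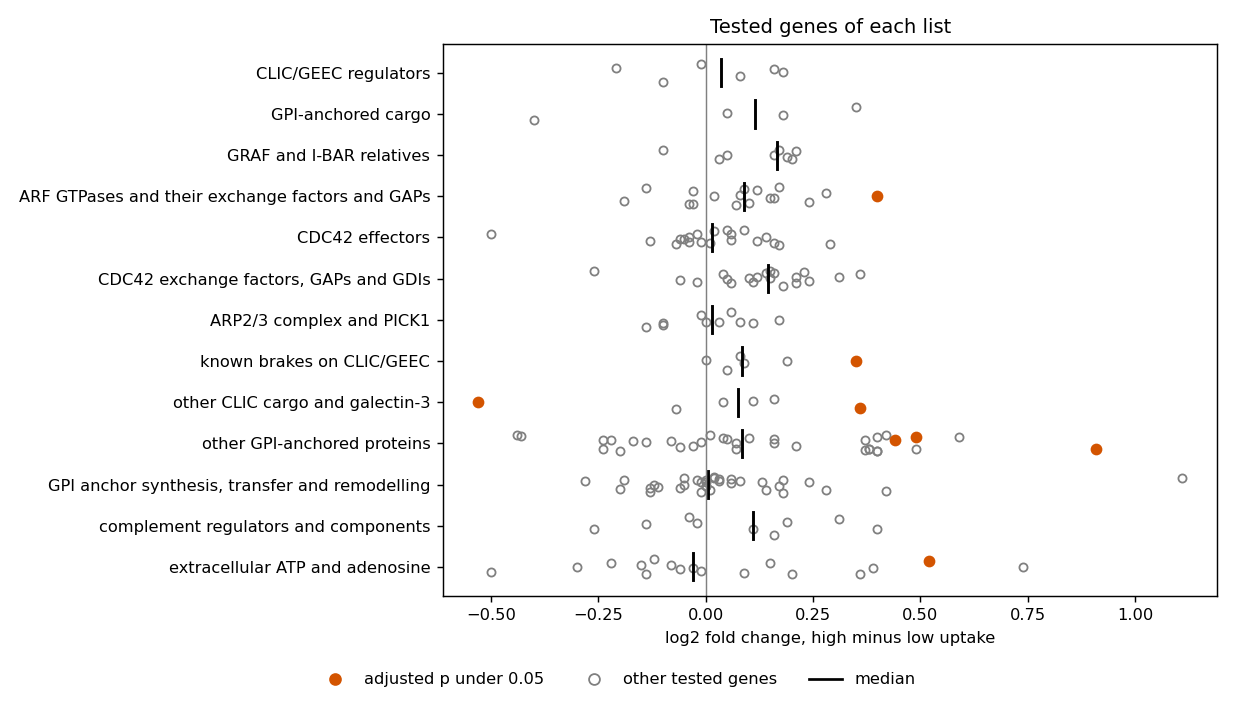
Log2 fold change of high over low uptake (horizontal axis) of every tested gene in the members' own lists (upper 2 rows) and in 11 lists of related genes; filled orange points passed edgeR's adjusted p threshold of 0.05, open points did not, and the bar is each list's median. List medians lie between -0.03 and 0.17, and none of the 10 members is filled.

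The authors' deposited table is a list of 2305 gene symbols with no values, beside 25680 gene symbols with counts and 14598 tested here. ARF1, CD55, CD59 and CD109 are on the list. The other 6 members are not on it. How that list was drawn up is not given here.

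Under 17 other settings 9 of the 10 members kept the sign of their difference, and ARHGAP26 kept it in 14. CD55 and ARF1 had a negative log2 fold change in each of the 17, ranging from -0.52 to -0.26 for CD55 and from -0.27 to -0.17 for ARF1. CD109, CD59, GBF1 and BAIAP2 were positive in each, ranging from 0.21 to 0.45, 0.10 to 0.22, 0.12 to 0.19 and 0.11 to 0.21. ARHGAP10, CDC42, ARHGAP26 and NT5E were called in none.

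**Figure D5:**
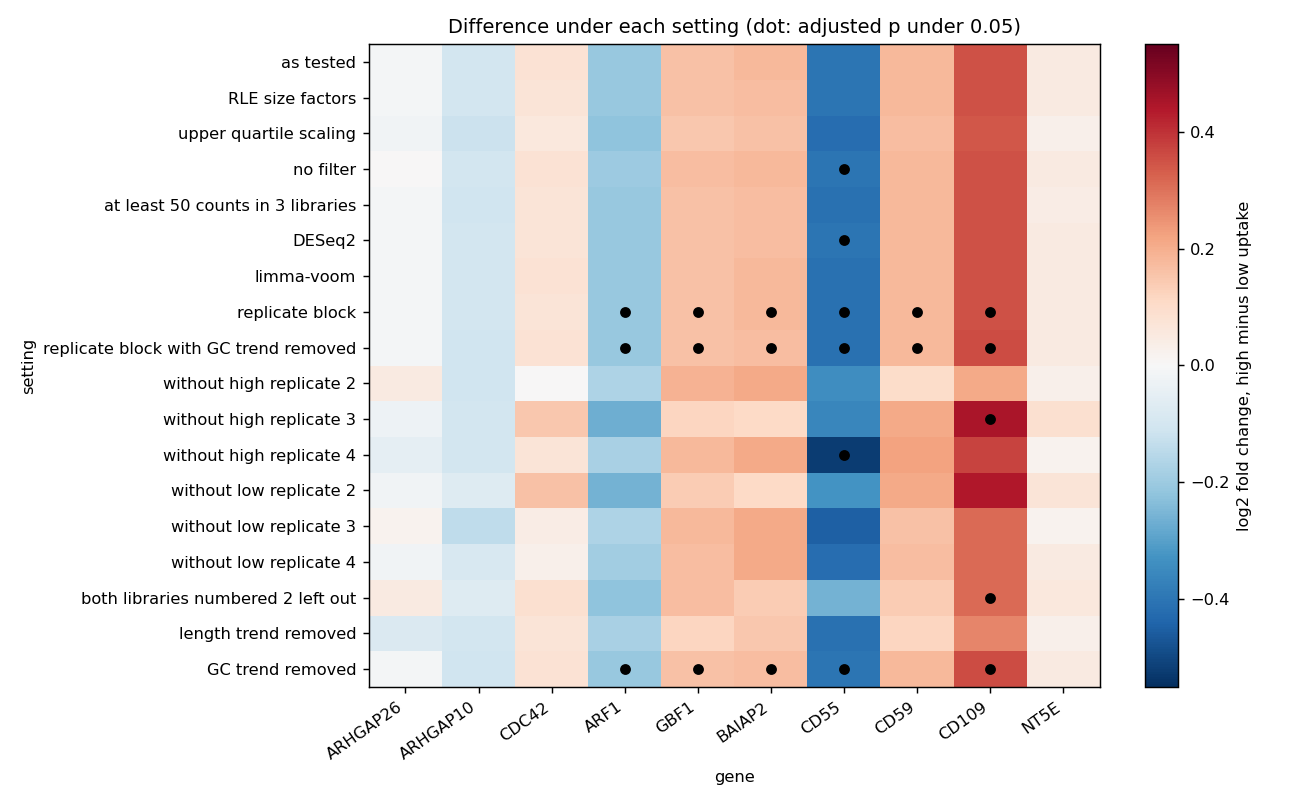
Log2 fold change of high over low uptake (colour) of each member (columns) as tested and under each of 17 other settings (rows); a black dot marks an adjusted p under 0.05. Dots are absent in the row as tested, and most lie in the rows with the replicate number as a block or the GC trend removed, in the columns of CD55, CD109, ARF1, GBF1, BAIAP2 and CD59.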

How the data were processed

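RNA-seq was read from 6 libraries of total RNA, made with a directional kit per the labels. Trimming, alignment and counting tools were fastp, STAR and featureCounts on hg19, per the submitters' processing notes. Not given in the sources used here were the gene annotation, whether counting used strand, and how multiply matching reads were handled. Each deposited table gives raw whole-number counts for every gene symbol and, per the file headers, FPKM and TPM values made by the authors. Counts were tested as deposited. FPKM, as deposited by the authors, gave only gene-model lengths, and deposited TPM gave levels between genes. Titles gave each library its group and number.

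Genes were filtered by filterByExpr (minimum count 10, minimum total 15), scaled by TMM and tested with edgeR 4.0.16 (quasi-likelihood, robust, two-sided, Benjamini-Hochberg over 14598 genes, threshold 0.05). Standard errors are the log2 fold change over the square root of F, and intervals cover 95%. DESeq2 1.42.0 and limma 3.58.1 were other tests. The fits were tested on simulated counts. GC contents came from GENCODE v29 transcripts and covered 92.8% of tested genes.

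The members and lists were chosen with earlier results of these data known. Named genes are the 10 members, 9 fixed by name and, per list, up to 4 that passed or else the 1 of smallest p, which gave 33 genes, 8 of them past the threshold, with 1 of the others not reported here; others (ARF3, ARFGEF1, ARFGEF2, VCL, CD24, SEMA7A and cell markers) were added after their values were seen. Promoters are from RefSeq. Members had from 259 to 30001 counts in a library, so counting error weighs most on ARHGAP26 and CD55.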

Additional observations from a re-analysis of the deposited data

How the results depend on the processing

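The number of genes called was 626 as tested. It was 3176 with the replicate number as a replicate block, 3990 with that block and the GC trend removed, 2344 with the GC trend removed alone, and between 232 and 738 with 1 library left out. The number of members called was 0 as tested, 1 in DESeq2 and 1 without a filter (CD55 in both), 1 with both libraries numbered 2 left out (CD109), 5 with the GC trend removed, 6 with the replicate block and 6 with the block and the GC trend removed (ARF1, GBF1, BAIAP2, CD55, CD59 and CD109), and between 0 and 1 with 1 library left out. The block rests on numbers whose meaning the labels do not give, so the numbers were not taken as pairs in the main test. Deviations of same-numbered libraries correlated at 0.452, 0.304 and 0.0873 for numbers 2, 3 and 4. Each high uptake library correlated best with the low uptake library of its own number. Low replicates 2 and 3 likewise matched their own number best, but low replicate 4 correlated best with high replicate 3 (0.216). Under the block 21.8% of all genes passed. Among the named genes, signs turned for ARHGAP26 (-0.05 to 0.05 with 1 library left out, 0.05 when neither number 2 was used, 0.02 without low replicate 3), ARHGAP21 (-0.02 with the length trend removed), CD46 (0.04 without high replicate 3 or low replicate 2) and THY1 (-0.10 in limma, -0.28 without high replicate 4, -0.28 to 0.63 over all single omissions, and -0.00 without high replicate 3 or low replicate 2). The cause of these shifts was not tested.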
